A study of Mus musculus with 12 samples.

Results

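10 genes were followed here in full, all of them members of muscle ubiquitin ligase families or of the Asb family: Asb2, Asb8, Asb10, Asb11, Asb14, Asb15, Kbtbd12, Fbxo32, Trim63 and Trim54. They are 10 of the 23337 gene symbols in the count tables of cardiomyocytes (CMs, the heart muscle cells) and were taken by symbol. They were chosen by gene family with the measured KO and CTRL values of both stages already known, so that their counts and directions are a description of these libraries and support nothing by themselves. All mice carried a fluorescent reporter that Cre switches on (Cas9GFP, tdTomato or mTmG) and received the same dose of AAV9-cTNT-Cre, a virus that makes Cre from the cardiac troponin T promoter. KO animals were Srf-flox/flox and control (CTRL) animals were Srf-flox/+, so CTRL CMs also lost 1 copy of Srf, which encodes serum response factor (SRF). Neonatal mice were injected under the skin on postnatal day 1 (P1) and their CMs taken on P14. Adult mice were injected into the peritoneum on P60 and their CMs taken on P90. Each of the 4 groups had 3 sorted samples. The knockout was mosaic: only reporter-positive CMs were sorted out of hearts in which many CMs had escaped Cre. The study counts such sorted CM samples by heart, and the labels do not say whether hearts of a group were from littermates.

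Ubiquitin ligases choose which proteins are tagged with ubiquitin for breakdown by the proteasome or for other fates. In the Asb proteins, ankyrin repeats are thought to hold the substrate and a SOCS box couples to elongins B and C with Cullin 5. Kbtbd12 belongs to the BTB-Kelch proteins, many of which are adaptors of Cullin 3. Fbxo32 (atrogin-1) is the F-box subunit of an SCF ligase, and Trim63 (MuRF1) and Trim54 (MuRF3) are RING-finger proteins of the sarcomere. Fbxo32 and Trim63 are best known as genes switched on in wasting muscle, in part by FoxO factors, and MuRF proteins help to turn over and to organise thick-filament and other sarcomere proteins. SRF itself binds a DNA sequence called the CArG box and acts beside MEF2 and other factors at muscle genes.

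The count tables place the genes in mm10 and give their summed exon length. Asb2 spans chr12:103321142-103356001 on the minus strand with 2690 bp of exon, Asb8 chr15:98134640-98165578 (minus, 2278 bp), Asb10 chr5:24532697-24540448 (minus, 2318 bp) and Asb11 chrX:164438101-164459100 (plus, 1262 bp). Asb14 lies at chr14:26894604-26915257 (plus, 2101 bp) and Asb15 at chr6:24528144-24573164 (plus, 4268 bp). Kbtbd12 shares chromosome 6 with Asb15 and lies at chr6:88613751-88627445 (minus, 1986 bp). Fbxo32 lies at chr15:58175879-58214892 (minus, 6936 bp), Trim63 at chr4:134315120-134329629 (plus, 1886 bp) and Trim54 at chr5:31116612-31137626 (plus, 1532 bp). The counts cover whole genes, and isoforms were not told apart.

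Promoter sequence is shown first for 4 genes, 3 whose RNA was lower in neonatal KO and Trim63, whose RNA was not called at either stage. Of the 10 genes, 9 had a promoter in the RefSeq table of GRCm38.p6 (mm10 coordinates), and the 250 bases before the start are given 5′ to 3′ on the gene's strand. Capitals mark a CArG box in Asb2, a MEF2 site in Asb14 and Kbtbd12 and the letters TGTTTAC, a FoxO-type motif, in Trim63. The windows are chr12:103356002-103356251 (minus strand) for Asb2, chr14:26894364-26894613 (plus) for Asb14, chr6:88627430-88627679 (minus) for Kbtbd12 and chr4:134314870-134315119 (plus) for Trim63.
Asb2: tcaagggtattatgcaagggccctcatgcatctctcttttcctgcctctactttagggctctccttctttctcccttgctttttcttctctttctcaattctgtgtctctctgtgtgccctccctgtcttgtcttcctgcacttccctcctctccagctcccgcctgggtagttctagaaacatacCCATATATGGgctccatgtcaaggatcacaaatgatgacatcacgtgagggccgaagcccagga
Asb14: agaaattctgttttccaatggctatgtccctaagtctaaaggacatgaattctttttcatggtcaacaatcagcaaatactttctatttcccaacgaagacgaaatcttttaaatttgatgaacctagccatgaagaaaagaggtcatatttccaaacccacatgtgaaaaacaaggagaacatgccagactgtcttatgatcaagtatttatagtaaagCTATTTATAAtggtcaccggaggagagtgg
Kbtbd12: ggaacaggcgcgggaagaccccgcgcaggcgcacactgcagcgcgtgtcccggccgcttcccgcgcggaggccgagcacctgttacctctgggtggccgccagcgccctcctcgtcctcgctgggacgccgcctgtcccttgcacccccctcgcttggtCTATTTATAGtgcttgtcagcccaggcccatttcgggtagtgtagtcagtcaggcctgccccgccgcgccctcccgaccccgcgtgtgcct
Trim63: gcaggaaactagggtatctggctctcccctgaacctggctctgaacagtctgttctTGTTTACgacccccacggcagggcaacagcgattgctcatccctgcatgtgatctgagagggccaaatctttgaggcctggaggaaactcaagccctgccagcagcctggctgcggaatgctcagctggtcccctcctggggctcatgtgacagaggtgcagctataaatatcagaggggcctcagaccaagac
The RefSeq start lay 10 bases inside the gene as the count tables place it for Asb14 and 16 bases inside it for Kbtbd12. For Asb10 and Asb11 this offset was −530 and −1107 bases, so that the RefSeq start lay before the gene as counted.

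Motifs were searched on both strands. The CArG box of Asb2, CCATATATGG, lay 64 to 55 bases before the start of its first listed promoter, and 1.47% of the 32851 RefSeq promoters of the same length held a CArG box, which is rarer than any of the other motifs searched. The MEF2 site of Asb14, CTATTTATAA, lay 30 to 21 bases before the start, and that of Kbtbd12, CTATTTATAG, lay 91 to 82 bases before it; a MEF2 site was present in 2.92% of promoters. Each of these MEF2 sites overlapped the letters TATAAA on the other strand, which 12.4% of promoters held. TGTTTAC lay 194 to 188 bases before the start of Trim63 and was found in 3.17% of promoters. CATTCC, the core letters of a TEAD site, was found in promoters of Asb8, Asb10, Trim63 and Trim54 and in 12.6% of all promoters. No CArG box or MEF2 site was found for Asb10, Asb15 and Trim54, which were also lower in neonatal KO. The windows of Asb8, Asb11 and Trim63 and the second listed promoter of Asb2 held neither as well. For Asb10 and Asb11, the bases just before the start of the gene as counted lay outside the window and were not searched. A match describes letters in a window and does not show binding.

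Both count tables held libraries of 9740389 to 23103460 reads, in which 3 counts correspond to between 0.308 and 0.130 CPM (counts scaled to library depth with TMM factors). All 10 genes passed the filter on low counts in every comparison, none shared exon bases with another listed gene, and 0 pairs of libraries were identical. Srf was examined first: in P14 CTRL it measured 63.9, 57.1 and 49.4 CPM and in P14 KO 32.1, 27.5 and 9.75 CPM, or 40.6% of CTRL by the fit (log2 fold change −1.30 ± 0.36 SE, edgeR adjusted p = 0.0628). In P90 CTRL it measured 71.1, 59.1 and 81.0 CPM and in P90 KO 32.8, 28.9 and 28.1 CPM, or 42.6% of CTRL (−1.23 ± 0.13 SE, edgeR adjusted p = 0.00347). KO was below CTRL in every library at both stages, and P14 KO replicate 3 had the lowest Srf. Y-linked RNA was present in replicate 3 of P14 KO, replicate 1 of P14 CTRL and replicate 3 of P90 CTRL. Libraries with Y-linked RNA were thus balanced at P14, with 1 of 3 in each group, and not at P90, with 1 of 3 in CTRL and 0 of 3 in KO.

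CM identity was clear in every library, with the summed CPM of 8 CM markers at 98320 to 103300 in P14 CTRL and 67430 to 71990 in P14 KO. At P90 the same sum ran from 94390 to 104200 CPM in CTRL and from 84270 to 87300 CPM in KO. Myh6 was the largest part of this sum. Its mean was 55692 CPM in P14 CTRL and 35495 CPM in P14 KO, and 55320 CPM in P90 CTRL and 40538 CPM in P90 KO. By the fits, 7 of the 8 CM markers were below CTRL and 1 above at P14. At P90, 3 were below and 5 above. The summed level of 5 mural cell markers was 77.7 to 168.5 CPM in P14 CTRL and 190.6 to 203.0 CPM in P14 KO. Cspg4 alone carried that separation, with a mean of 48.1 CPM in CTRL and 122 CPM in KO, while the means of Pdgfrb (34.5 and 27.3 CPM), Rgs5 and Kcnj8 were lower in KO and Myh11 overlapped (8.16 to 32.8 CPM in CTRL and 12.2 to 30.7 CPM in KO). The sum of 6 atrial CM markers was 58.5 to 504 CPM in P14 CTRL and 306 to 1183 CPM in P14 KO. Nppa made up most of it in every P14 library, at 52.4 to 497 CPM in CTRL and 296 to 1159 CPM in KO. Myl7 measured 24.1, 8.94 and 0.051 CPM in P14 KO replicates 1 to 3 and at most 1.41 CPM in P14 CTRL. Sln measured 14.5, 3.01 and 0 CPM in these KO replicates and at most 0.65 CPM in P14 CTRL. Bmp10 measured 8.03, 0.53 and 0 CPM in them. Myl4 did not overlap, with a mean of 3.88 CPM in P14 CTRL and 12.4 CPM in P14 KO. By the P14 fit, 4 of 5 atrial markers tested were above CTRL and 1 below, and 1 was called higher. Endothelial sums (174 to 374 against 228 to 338 CPM) and fibroblast sums (106 to 295 against 172 to 315 CPM) overlapped. Immune markers summed to at most 11.4 CPM in any library. Of 7 blood markers 5 were in the tables, of which 4 globin genes were listed at 0 in every library, so that blood could be read only from Alas2, at most at 2.39 CPM. Of the skeletal muscle markers, Myh1, Myh2, Myh4, Actn3, Mylpf and Myod1 were all under 1 CPM in every library, and only Ckm, which the heart also makes, was abundant. The part of these sums in the results that follow was not tested, and in bulk RNA fewer cells of one type and less RNA per cell cannot be told apart.

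**Figure D1:**
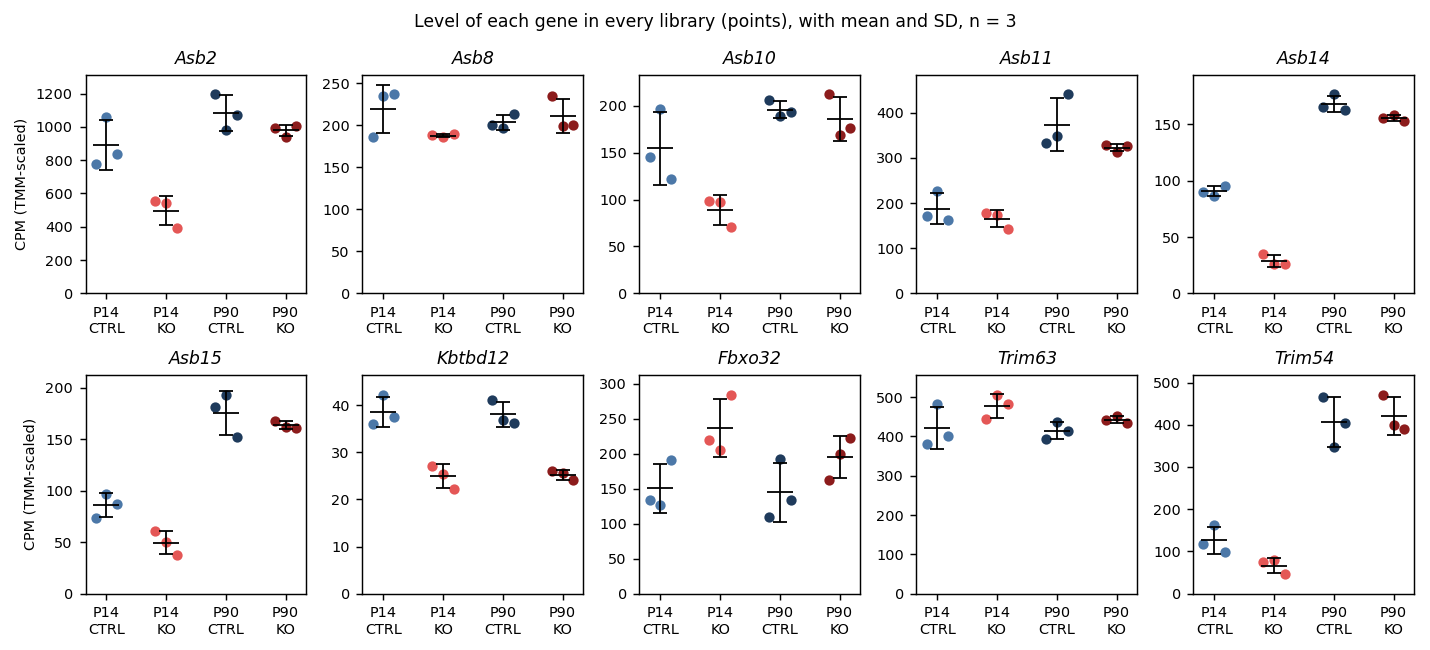
Level of each of the 10 genes in CPM (y axes start at 0) in the 3 libraries of each group (x axis, points), with mean and SD. Asb14 in P14 KO sits between 25.7 and 34.9 CPM, below every other library, while Trim54 rises from 99.1 to 162 CPM in P14 CTRL to 347 to 466 CPM in P90 CTRL.

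In the neonatal model, RNA of 6 of the 10 genes fell with Srf KO and none rose. These were Asb2, Asb10, Asb14, Asb15, Kbtbd12 and Trim54. Of the 12546 genes tested at P14, 8.59% were called at an edgeR adjusted p under 0.05, 3.99% higher and 4.60% lower. The median log2 fold change was −0.72 over the 10 genes and 0.00 over all genes. The groups did not overlap for the 6 genes called lower, against 16.7% of all genes, and for Fbxo32 in the other direction, against 16.0%.

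Asb14 showed the deepest fall. It measured 90.3, 86.5 and 95.3 CPM in P14 CTRL and 34.9, 25.7 and 26.0 CPM in P14 KO. Every KO library lay far below every CTRL library, and the fitted level in KO was 31.8% of CTRL (log2 fold change −1.66 ± 0.14 SE, n = 3 per group, edgeR adjusted p = 0.00199). Its call held when any of the 6 libraries was left out.

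Asb2 is the ligase subunit known for directing breakdown of filamins, and its promoter held the CArG box shown above. It measured 775, 1057 and 837 CPM in P14 CTRL and 553, 541 and 395 CPM in P14 KO. The KO libraries all lay below the lowest CTRL library, at 55.6% of CTRL (log2 fold change −0.85 ± 0.17 SE, edgeR adjusted p = 0.0249). Asb10 measured 145, 197 and 122 CPM in P14 CTRL and 98.0, 97.3 and 70.3 CPM in P14 KO (−0.81 ± 0.20 SE, edgeR adjusted p = 0.0444). CTRL replicate 2 was the highest of the 6 for both genes and KO replicate 3 the lowest.

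Asb15 measured 73.4, 97.2 and 87.5 CPM in P14 CTRL and 60.5, 50.6 and 37.6 CPM in P14 KO (log2 fold change −0.80 ± 0.18 SE, edgeR adjusted p = 0.0345). Asb8 and Asb11 stood apart from the other Asb genes described here. Asb8 measured 186, 234 and 236 CPM in P14 CTRL and 188, 186 and 189 CPM in P14 KO (−0.23 ± 0.12 SE, edgeR adjusted p = 0.287). Asb11 measured 172, 227 and 163 CPM in P14 CTRL and 178, 174 and 143 CPM in P14 KO (−0.19 ± 0.16 SE, edgeR adjusted p = 0.510), and its value turned to 0.04 when libraries were scaled to total counts. For both genes the groups overlapped.

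Kbtbd12 measured 36.1, 42.2 and 37.4 CPM in P14 CTRL and 27.1, 25.4 and 22.1 CPM in P14 KO. The groups were separate, with KO at 64.3% of CTRL (log2 fold change −0.64 ± 0.13 SE, edgeR adjusted p = 0.0227).

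The 3 classical muscle ligases did not move as one. Trim54, whose product binds microtubules and the sarcomere, measured 119, 162 and 99.1 CPM in P14 CTRL and 74.4, 78.6 and 46.0 CPM in P14 KO, or 52.3% of CTRL (−0.94 ± 0.24 SE, edgeR adjusted p = 0.0477). Trim63 measured 381, 483 and 402 CPM in P14 CTRL and 444, 506 and 482 CPM in P14 KO, with overlapping groups (0.17 ± 0.13 SE, edgeR adjusted p = 0.441). Fbxo32 measured 134, 127 and 191 CPM in P14 CTRL and 219.7, 206 and 284 CPM in P14 KO. Every KO library exceeded every CTRL library, yet the difference missed the threshold (0.65 ± 0.19 SE, edgeR adjusted p = 0.0719). It was called with DESeq2, without the filter on low counts, with the replicate number as a block and with total-count scaling. Of the 6 fits without 1 library, 1 called it.

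These calls changed when 1 library was left out, as did those over all genes, which went from 1078 to between 111 and 1004. Such a fit also has fewer samples, and the part of this in the lost calls was not tested. P14 KO replicate 3 was the lowest KO library for 6 of the 10 genes (Asb2, Asb10, Asb11, Asb15, Kbtbd12 and Trim54) and the highest for Fbxo32. Leaving out P14 KO replicate 1, 2 or 3 each left 1 of the 10 genes called, Asb14. Leaving out P14 CTRL replicate 1 left 4, replicate 2 left 3 and replicate 3 left 6, of which 5 were lower and 1 higher. With total-count scaling, under which the median of all genes moved to 0.22, Asb10 and Trim54 were no longer called, and Trim63 (0.40, edgeR adjusted p = 0.0483) and Fbxo32 (0.86, edgeR adjusted p = 0.0321) were called higher. Trim54 was also lost with the size factors of DESeq2. In the fits without 1 library, the directions of the 6 genes called lower were unchanged, and log2 fold changes ranged from −0.94 to −0.69 for Asb2, from −1.80 to −1.56 for Asb14 and from −1.09 to −0.71 for Trim54.

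**Figure D2:**
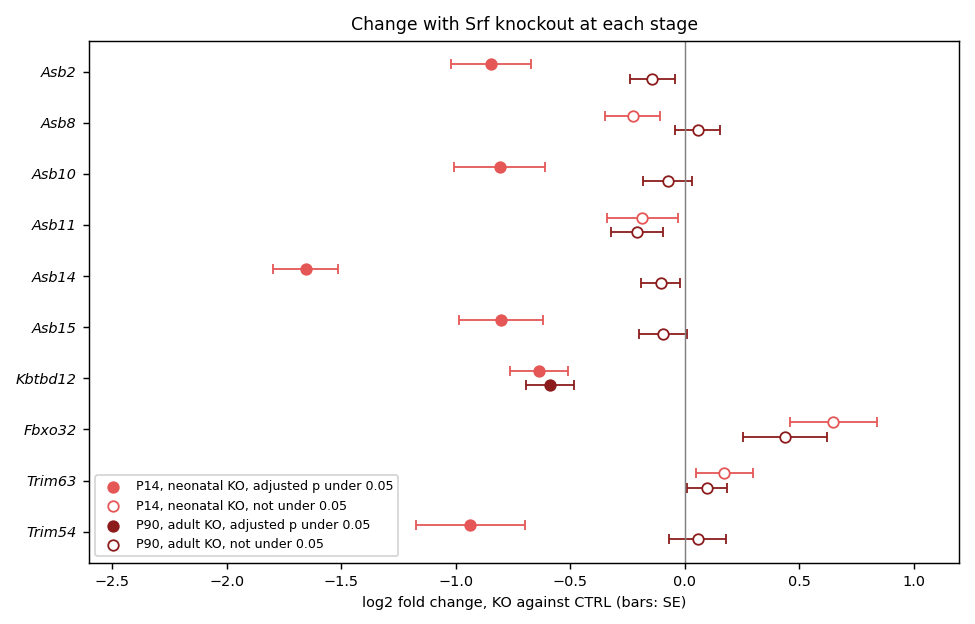
Log2 fold change of KO against CTRL (x axis) for each gene (y axis) at P14 and P90, with SE bars; filled points passed an edgeR adjusted p of 0.05. At P14, 6 genes are filled and to the left of 0, with Asb14 farthest at −1.66, and at P90 only Kbtbd12 is filled, at −0.59.

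In the adult model, only Kbtbd12 of the 10 genes fell. It measured 41.0, 36.9 and 36.1 CPM in P90 CTRL and 26.1, 25.6 and 24.0 CPM in P90 KO, which left every KO library well under the lowest CTRL library (log2 fold change −0.59 ± 0.11 SE, n = 3 per group, edgeR adjusted p = 0.0485). Of 11808 genes tested at P90, 0.390% were called, 0.152% lower. The call was lost when any 1 of the 6 P90 libraries was left out, with log2 fold changes from −0.62 to −0.53 in those fits. KO also lay below CTRL in all libraries for Asb11 and Asb14, as for 11.2% of all genes. The median log2 fold change over the 10 genes was −0.08.

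Unlike Kbtbd12, the other genes that fell in neonatal KO (Asb2, Asb10, Asb14, Asb15 and Trim54) were not called in adult KO. Asb14 measured 165, 177 and 162 CPM in P90 CTRL and 156, 159 and 153 CPM in P90 KO (log2 fold change −0.10 ± 0.09 SE, edgeR adjusted p = 0.588). Asb2 measured 1195, 982 and 1071 CPM in P90 CTRL and 990.3, 939 and 1006 CPM in P90 KO (−0.14 ± 0.10 SE, edgeR adjusted p = 0.513). Trim54 measured 466, 347 and 404 CPM in P90 CTRL and 471, 400.4 and 390.3 CPM in P90 KO (0.06 ± 0.12 SE, edgeR adjusted p = 0.855).

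Among these genes, the groups overlapped for Asb2 and Trim54, and the Asb14 groups were separated by a few CPM. Asb10 ranged from 189 to 206 CPM in P90 CTRL and from 168 to 212 CPM in P90 KO. Asb15 ranged from 152 to 193 CPM and from 161 to 168 CPM. Neither was called.

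Of the other genes, Fbxo32 measured 109, 192 and 133 CPM in P90 CTRL and 163, 199 and 223 CPM in P90 KO, with overlapping groups (0.44 ± 0.18 SE, edgeR adjusted p = 0.274). Trim63 ranged from 394 to 436 CPM in P90 CTRL and from 435 to 451 CPM in P90 KO. Asb8 ranged from 197 to 213 CPM and from 199 to 234 CPM. Asb11 measured 332, 348 and 440.4 CPM in P90 CTRL and 327, 314 and 326 CPM in P90 KO (−0.21 ± 0.11 SE, edgeR adjusted p = 0.400).

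The difference between the neonatal and adult KO effects was tested in 1 fit of all 12 samples, in which 1.78% of 12841 genes were called. Only Asb14 of the 10 genes was called, with an effect 1.54 lower on the log2 scale in neonatal than in adult CMs (−1.54 ± 0.16 SE, edgeR adjusted p = 0.00251), and it ranked first of all genes tested by p-value. The call held when any of the 12 libraries was left out. The difference was −0.70 ± 0.20 SE for Asb2 (edgeR adjusted p = 0.0970), −0.73 ± 0.24 SE for Asb10 (adjusted p = 0.126), −0.70 ± 0.22 SE for Asb15 (adjusted p = 0.115) and −0.98 ± 0.29 SE for Trim54 (adjusted p = 0.0995). These 4 did not pass in the main edgeR fit. DESeq2 called all of them (adjusted p = 0.0186 for Asb2, 0.0466 for Asb10, 0.0371 for Asb15 and 0.0186 for Trim54). With the replicate number added to the edgeR model as a block, Asb2 (edgeR adjusted p = 0.0432), Asb10 (0.0265) and Trim54 (0.0117) were called and Asb15 (0.084) was not. Trim54 was also called by edgeR with no filter on low counts. The call of a stage difference for these 4 thus depended on the tool and the settings. For Kbtbd12 the difference was −0.04 ± 0.16 SE (adjusted p = 0.921). Injection route and the time from injection to sampling differed between the stages, and neither can be told apart from stage in this test.

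With age, 4 of the 10 genes rose in CTRL CMs. From P14 to P90, Trim54 rose to 322% of its P14 level (log2 fold change 1.69 ± 0.19 SE, n = 3 per group, edgeR adjusted p = 0.000465). Asb15 rose by 1.03 ± 0.14 SE on the log2 scale (edgeR adjusted p = 0.00111) and Asb11 by 1.00 ± 0.16 SE (edgeR adjusted p = 0.00252). Asb14 rose by 0.89 ± 0.10 SE (edgeR adjusted p = 0.000538). Of 12294 genes tested, 29.3% were called, 14.5% higher, and the P14 and P90 groups did not overlap, with P90 higher, for these 4 genes and for 22.1% of all genes.

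Asb2 (0.29 ± 0.14 SE, edgeR adjusted p = 0.150) and Asb10 (0.35 ± 0.16 SE, edgeR adjusted p = 0.144) did not pass. Kbtbd12, Fbxo32, Trim63 and Asb8 had log2 differences between −0.10 and −0.02, none called. Stage, injection route, time since injection and any difference in handling between the 2 tables cannot be told apart in this comparison. Fibroblast marker sums were 106 to 295 CPM in P14 CTRL and 48.2 to 67.0 CPM in P90 CTRL. Of 6 fibroblast and 6 endothelial markers, 4 each were called lower with age and 0 higher. Of 5 atrial markers tested, 3 were called higher and 1 lower, and of 8 CM markers 0. The part of these in the age differences was not tested. Of the 4 genes that rose with age, Asb14, Asb15 and Trim54 were also among those lower in neonatal KO, and these comparisons share the P14 CTRL libraries. Asb11 rose with age and was not called in neonatal KO.

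Compared per length of exon, levels spanned more than an order of magnitude. In P14 CTRL, Asb2 was highest at 331 ± 55.2 CPM per kb (SD, n = 3), followed by Trim63 at 224 ± 28.7 and Asb11 at 148 ± 27.4 CPM per kb, and these 3 did not overlap. Asb8 (96.1 ± 12.5), Trim54 (82.6 ± 21.0) and Asb10 (66.7 ± 16.6) each overlapped the next in that order. Asb14 followed at 43.2 ± 2.11 CPM per kb. Fbxo32, Asb15 and Kbtbd12 overlapped one another at 21.7, 20.2 and 19.4 CPM per kb.

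In P14 KO the order changed at the top, with Trim63 at 253 ± 16.7 CPM per kb above Asb2 at 185 ± 32.7 CPM per kb and no overlap between them. Asb14 dropped to 13.7 CPM per kb, among Kbtbd12 and Asb15 at 12.5 and 11.6 CPM per kb. In P90 CTRL, Asb2 was first at 402 ± 39.7 CPM per kb. Asb11 (296 ± 46.4) overlapped Trim54 (265 ± 39.0), which overlapped Trim63 (220.1 ± 11.1). P90 KO had Asb2 first at 364 ± 13.1 CPM per kb and Kbtbd12 last at 12.7 ± 0.55 CPM per kb.

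The 6 Asb genes held nearly all Asb family RNA per kb. The tables list 18 Asb genes, of which 15 passed the filter at P14, and Asb9, Asb16 and Asb17 were under 0.1 CPM per kb in P14 CTRL. At P14 the family summed to between 702 and 891 CPM per kb in CTRL and between 466 and 576 CPM per kb in KO. At P90 the sums were between 1020 and 1122 CPM per kb in CTRL and between 950.0 and 1011 CPM per kb in KO. P14 KO was the lowest group, with no overlap with the others. The 6 genes held 91.0% of the family in P14 CTRL, 86.4% in P14 KO, 92.2% in P90 CTRL and 92.1% in P90 KO. Asb2 alone held 42.7% in P14 CTRL and 34.6% in P14 KO.

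Of the 9 other Asb genes tested at P14, 1 was called. This was Asb6, higher at 12.5 CPM in CTRL and 18.5 CPM in KO (log2 fold change 0.56 ± 0.14 SE, edgeR adjusted p = 0.0479). None of the 9 was called at P90, where 1 of all 15 Asb genes tested had an unadjusted edgeR p under 0.05 and DESeq2 called 0. With age in CTRL, Asb18 (1.07 ± 0.21 SE, edgeR adjusted p = 0.00643) and Asb5 (0.67 ± 0.13 SE, edgeR adjusted p = 0.00619) rose and Asb4 fell by 0.67 ± 0.16 SE on the log2 scale (edgeR adjusted p = 0.0152).

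**Figure D3:**
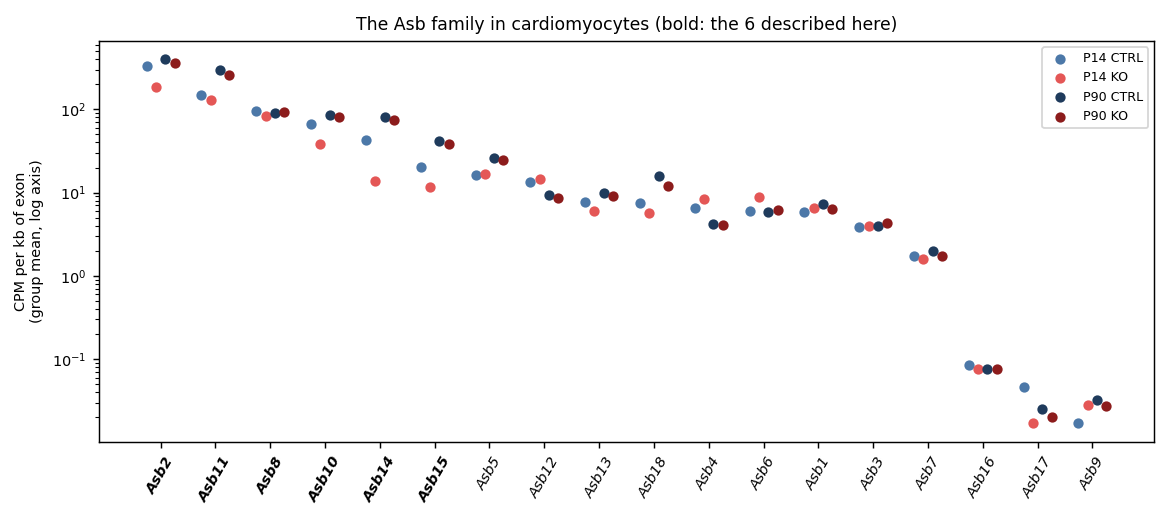
Group mean level of the 18 Asb genes in CPM per kb of exon (log y axis), ordered by P14 CTRL (x axis), for 4 groups; bold names mark the 6 genes described here. Those 6 are the highest in P14 CTRL, from Asb2 at 331 to Asb15 at 20.2 CPM per kb, and Asb14 has the widest gap between P14 CTRL and P14 KO.

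Other parts of the ubiquitin pathway were read from lists with the 10 genes left out. Over the lists, 174 other genes were tested at P14, of which 15 (8.62%) were called, 6 higher and 9 lower, a share near the 8.59% of all genes, and the median log2 fold change was −0.13. Among muscle TRIM genes, Trim55 (MuRF2) fell by 0.51 ± 0.10 SE on the log2 scale in neonatal KO (edgeR adjusted p = 0.0222), from 88.7 to 62.5 CPM. Among F-box genes and the SCF core, Fbxl22, whose product lies at the Z-disc, fell by 1.48 ± 0.34 SE (edgeR adjusted p = 0.0355), Fbxo31 fell by 0.72 ± 0.17 SE (edgeR adjusted p = 0.0379), and Cand1, which exchanges the substrate subunits of cullin ligases, rose by 0.63 ± 0.12 SE (edgeR adjusted p = 0.0196). Skp1a and Cul1, the SCF partners of Fbxo32, had log2 fold changes of −0.05 and −0.09, not called.

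Among BTB-Kelch genes, Klhl34 rose from 2.92 to 14.2 CPM (2.27 ± 0.24 SE, edgeR adjusted p = 0.00406) and Kbtbd13, a gene of nemaline myopathy, fell from 4.50 to 1.75 CPM (−1.37 ± 0.27 SE, edgeR adjusted p = 0.0225). The 7 genes of the Cullin 5 and elongin core that Asb proteins need were all below CTRL, with a median of −0.37 and a value of −0.45 ± 0.16 SE for Cul5, but 0 of 7 were called by edgeR, 4 had an unadjusted p under 0.05 and DESeq2 called 1. With total-count scaling, 6 of the 7 were below CTRL with a median of −0.15 and none was called, while 1 was called lower with no filter on low counts and 3 with all 12 samples in one fit. Among other ligases, Wwp1 (−0.72 ± 0.11 SE), Neurl2 (−0.49 ± 0.12 SE) and Mul1 (−0.46 ± 0.10 SE) fell, and Cblb (0.59 ± 0.13 SE) and Nedd4l (0.54 ± 0.10 SE) rose.

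Described partners of these ligases gave 3 calls of 18 at P14. Flnc, the muscle filamin, rose from 378 to 662 CPM (0.80 ± 0.16 SE, edgeR adjusted p = 0.0214). Acadm, a fatty acid oxidation enzyme, fell from 1470.4 to 876 CPM (−0.75 ± 0.15 SE, edgeR adjusted p = 0.0242). Myh6, the main adult myosin heavy chain, fell by 0.65 ± 0.16 SE (edgeR adjusted p = 0.0466). Flna had a log2 fold change of −0.33, not called.

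The general machinery gave 0 calls at P14 in the edgeR fit of the 6 P14 samples. This held for 18 regulators of the atrophy programme (4 at an unadjusted p under 0.05, 1 by DESeq2), 8 ubiquitin and E1 genes (3 and 2), 32 E2 enzymes (12 and 4), 33 proteasome subunits (4 and 1) and 5 immunoproteasome genes (1 and 1). Other edgeR fits did call some of them. With total-count scaling, 6 E2 enzymes, 2 ubiquitin and E1 genes, 1 proteasome subunit and 1 atrophy regulator were called higher and none lower. With all 12 samples in one fit, 6 E2 enzymes, 3 proteasome subunits and 1 gene of each other list were called lower, and 1 E2 enzyme and 1 gene of the ubiquitin and E1 list higher. Foxo1, a FoxO factor known to act on Fbxo32 and Trim63, measured 28.7 CPM in P14 CTRL and 31.2 CPM in P14 KO. In the edgeR fit of the 6 P90 samples, 0 of 175 other genes of the lists were called. There 38 had an unadjusted p under 0.05, and DESeq2 called between 0 and 4 of these other genes in a list. With no filter on low counts, edgeR called 1 higher and 3 lower in both the Kelch and the partner list, and 2 other ligases lower. It also called 1 F-box or SCF gene higher and 1 lower, and 1 higher each among ubiquitin and E1 genes, E2 enzymes and immunoproteasome genes. With the replicate number as a block the calls were as many, but 0 of E2 enzymes. Calls over all genes rose in both fits. Proteasome subunits at P90 were above CTRL in 32 of 33 cases with a median of 0.12, and in 15 of 33 with a median of −0.01 once the trend with gene length was removed.

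**Figure D4:**
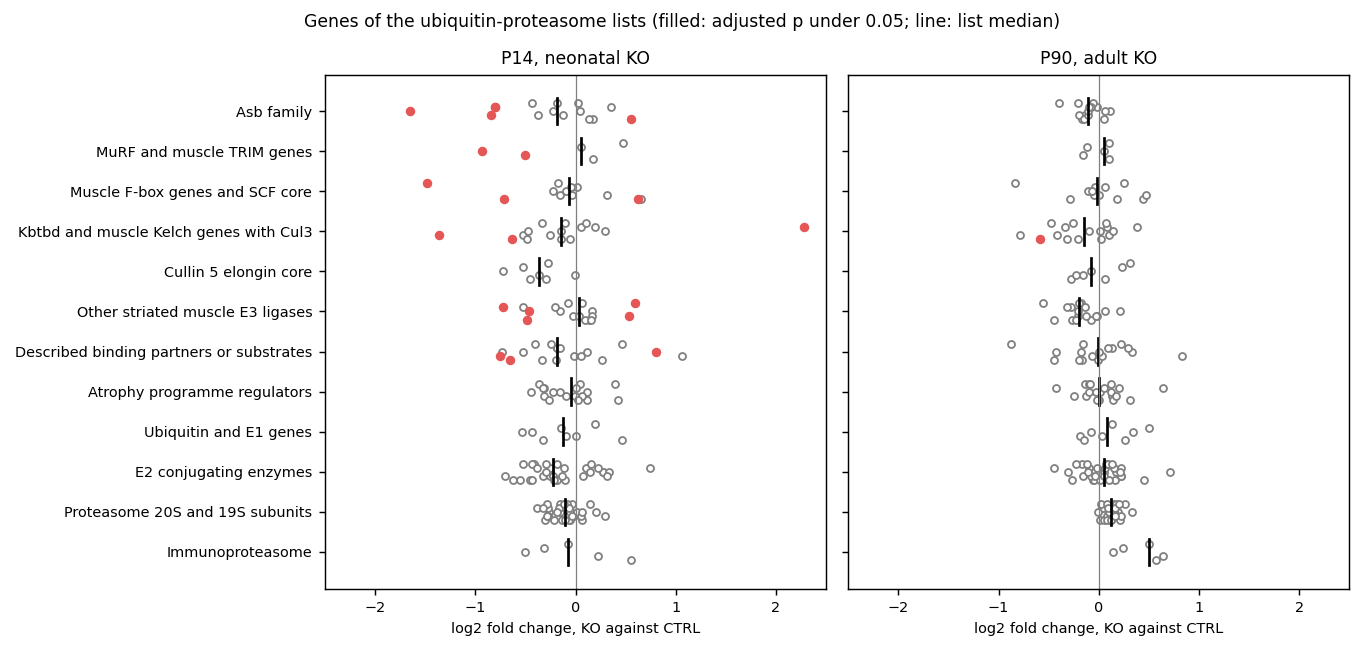
Log2 fold change of KO against CTRL (x axes) for genes of 12 lists (y axis) at P14 and P90, the 10 genes included; filled points passed an edgeR adjusted p of 0.05 and vertical lines are list medians. At P14 the filled points lie in the ligase and partner lists, from Asb14 at −1.66 to Klhl34 at 2.27, and at P90 only Kbtbd12 is filled.

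The genes with the most similar pattern were found by the root mean square distance of centred log2(CPM + 1) profiles over the 12 libraries, among 9466 genes with a mean of at least 5 CPM. Among the 10 genes themselves, Asb2 and Asb10 were closest, 0.12 log2 units apart. Asb2 lay 0.10 from Prdx3, a mitochondrial peroxiredoxin, 0.11 from Adk and 0.12 from Hibadh. Asb10 had Prdx3 and Adk as its nearest genes too, at 0.11 each. Asb14 was farther from any other gene: its nearest was Lrtm1 at 0.24, followed by Clcn1, the muscle chloride channel, at 0.25 and Tmod4, a tropomodulin, at 0.26. Distances were not scaled to a gene's own variation, which was large for Asb14, with a root mean square of 1.01 log2 units around its mean.

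For Trim54, 9230112J17Rik and Ogdhl were nearest at 0.22 each. Asb15 was nearest to Acss1, a mitochondrial acetyl-CoA synthetase, at 0.10. Fbxo32 was nearest to Ube2l6, an E2 enzyme, at 0.16 and to Lpin2 at 0.18, and Kbtbd12 was nearest to Msrb3 at 0.12. Asb11 was nearest to Zfp770 at 0.13, Asb8 to Ciao1 at 0.07 and Trim63 to Aup1 at 0.05. Asb8 and Trim63 varied little across the libraries, with a root mean square of 0.13 and 0.12 log2 units around their own means, so that many genes lie near them.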

How the data were processed

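RNA was measured by sequencing in 12 samples of sorted CMs, grouped by their titles. The authors aligned reads to mm10 with STAR 2.5.3a and counted them per gene with featureCounts (Subread 1.5.2), and deposited raw counts in 2 tables, one per stage; the versions are from the submitters' processing notes, which also name CASAVA 1.8. The annotation release, strand setting and treatment of reads with several placements are not given in the sources used here. cDNA was amplified and carries no molecular identifiers, so that copies made by amplification were not told apart. The SE and p-values of the fits rest on the spread between libraries.

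From the deposited counts, edgeR 4.0.16 in R 4.3.3 (filterByExpr, TMM) gave quasi-likelihood F-tests, adjusted by Benjamini-Hochberg over all genes tested, with 0.05 as the threshold. The study used DESeq2, run here (1.42.0) as an alternative. Fits used the 6 samples of a stage, or all 12 for the interaction, or the 6 CTRL samples for age. SE is the absolute log2 fold change over the square root of F. CPM used TMM factors of all 12 libraries. The members and gene lists were chosen with earlier results of these data known. Named genes were the 10 members, Srf, the Asb family, up to 4 called genes per list and comparison with the largest change, marker genes and the 3 nearest profiles per member; Mul1, Skp1a, Cul1, Cul5, Foxo1 and Flna were named in addition, after their values were seen. The tests were also run on simulated counts. Whether same-numbered samples pair was not settled, and the main fits treat them as unpaired (see the closing part on processing). A further gene of the lists is not reported here.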

Additional observations from a re-analysis of the deposited data

Results flagged for a closer look

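The KO effect differed between the neonatal and adult stages, by the interaction term of the edgeR fit over all 12 samples, for 6 genes of the lists. Asb14 was 1.54 lower in neonatal than in adult CMs (log2 difference −1.54, adjusted p = 0.00251). Klhl34 differed by 2.20 (adjusted p = 0.0222), Flnc by 1.24 (adjusted p = 0.0399) and Nedd4l by 0.68 (adjusted p = 0.0235), each higher in the neonatal effect. Tnni3 differed by −0.85 and Acadm by −0.78 (adjusted p = 0.0437 for both), each lower in the neonatal effect. Tnni3 measured 5960 CPM in P14 CTRL, 4149 CPM in P14 KO, 6537 CPM in P90 CTRL and 8221 CPM in P90 KO. With the trend with gene length removed, the calls of Flnc, Acadm, Tnni3 and Nedd4l were lost, while Asb14 and Klhl34 were called under all 6 alternative settings. When 1 of the 12 libraries was left out, Asb14 was called in 12 of 12 fits, Klhl34 in 6, Nedd4l in 4, Flnc and Acadm in 3 each and Tnni3 in 2. Groups of 3 libraries were not tested for single extreme values. Here too, stage cannot be told apart from injection route and the time from injection to sampling.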

How the results depend on the processing

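Of 570 values of the 10 genes under alternatives, 554 moved by less than the spread between replicates and 0 called values reversed; 11 of the 16 that moved did so with scaling to total counts, which was added after seeing the data and shifted the median of all genes by 0.22 on the log2 scale at P14, 0.17 in the interaction and −0.12 with age. In neonatal KO, 1078 genes were called (501 higher, 577 lower), against 1798 with DESeq2, 2088 with all 12 samples in one fit and 1724 with total-count scaling (1405 higher, 319 lower); leaving out 1 library gave 111 to 1004 genes and 1 to 6 of the 10. In adult KO, 46 genes were called, against 312 with DESeq2, 701 with no filter on low counts, 84 without the length trend and 3 with all 12 samples; leaving out 1 library gave 6 to 51 genes and 0 of the 10 (0 to 0). Of the 10 genes, 2 were called at P90 with no filter and 0 with all 12 samples or total-count scaling. For the interaction, 228 genes were called (105 higher, 123 lower), against 897 with DESeq2, 474 with no filter and 119 without the length trend, and total-count scaling gave 199 higher and 60 lower; leaving out 1 library gave 4 to 377 genes and 1 of the 10 (1 to 1), while DESeq2 called 5 (Asb2, Asb10, Asb14, Asb15 and Trim54) and no filter 2. With age, 3607 genes were called (1779 higher, 1828 lower; 1314 and 2368 with total-count scaling), and leaving out 1 library gave 2067 to 4768 genes and 4 to 6 of the 10. The cause of these shifts was not tested. With DESeq2 size factors, 5 of the 10 were called in neonatal KO.

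Adding the replicate number to the model as a block gave 1529 called genes for neonatal KO (7 of the 10), 655 for adult KO (2), 687 for the interaction (4, Asb2, Asb10, Asb14 and Trim54) and 3139 with age (4). The correlation of deviations between same-numbered KO and CTRL samples was 0.047, 0.148 and 0.36 at P14 and 0.181, 0.00 and 0.054 at P90. At P14 1 of 3 samples and at P90 2 of 3 correlated best with their own number. With 3 samples per group these values cannot settle whether the numbers pair the samples, and the labels do not say. Having 3 libraries per group limits what any of these tests can show.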
